A study of Mus musculus with 6 samples.

Results

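The genes described here encode the cornified envelope and the epidermal barrier: the late cornified envelope (Lce) and small proline-rich (Sprr) families, loricrin (Lor), involucrin (Ivl), cornifelin (Cnfn), filaggrin (Flg) and related proteins, and the enzymes, junction proteins, lipid genes and transcription factor that act with them. They were chosen by symbol, with no measured value in the rule, and 55 of the 18404 genes in the table are members. Of these, 44 had a mean count of at least 10 over the libraries, and the same 44 passed the low-count filter and were tested. The symbol Loricrin does not occur in the table and that gene is listed as Lor.

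Poly(A) RNA of the ear skin of mice was sequenced in 6 libraries at postnatal day 3. The 3 libraries labelled Vegfr2ecko, here ecko, come from pups with an endothelial knockout of Kdr, which encodes the receptor VEGFR2, and the 3 control libraries come from littermates. Tamoxifen is recorded for both groups and was given from postnatal day 1 at 60 µg per day, and the title of the series names 48 h. The labels give neither the promoter that drives the recombinase nor the genotype of the controls. They also do not state that each library is a separate pup. The Y-linked gene Ddx3y had 1641, 1445 and 6 counts in ecko libraries, and 1551, 4 and 1469 counts in control libraries. The libraries of a group are therefore not all from 1 pup, but some may share a pup. P-values measure the spread between these libraries, which may be in part technical.

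The cornified envelope is the protein shell that replaces the plasma membrane of a keratinocyte as it dies at the skin surface. Transglutaminases cross-link loricrin, involucrin, small proline-rich and late cornified envelope proteins into it, and ceramides are attached to its outer face. Proteases mature filaggrin and later cut the corneodesmosomes that hold the dead cells together. Many envelope genes lie side by side in a cluster called the epidermal differentiation complex, which in the mouse is on chromosome 3.

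Kdr, the deleted gene, had 19.4, 24.2 and 21.6 CPM (counts scaled to a common library size) in ecko skin, against 89.9, 103 and 77.1 CPM in control skin, a log2 fold change of -2.05 ± 0.12 (SE, adjusted p = 0.0002). Keratinocyte markers were abundant in both groups: Krt5 averaged 3288 ± 138 CPM in ecko skin and 3520 ± 205 CPM in control skin, and Krt10 averaged 7563 ± 659 CPM in ecko skin and 8072 ± 1609 CPM in control skin (SD, n = 3 each). Library totals lay between 16987130 and 17979182 expected counts. The 55 barrier genes took 0.804%, 0.810% and 0.739% of the counts in ecko libraries, and 0.774%, 0.691% and 0.839% in control libraries. Control 3 stands apart: chi-square per gene was 13.2 to 19.8 in its pairs with other libraries and 4.18 to 11.5 in all other pairs. Its summed level of 16 skeletal muscle genes was also the lowest, at 6250 CPM, against 8642 to 11212 CPM in the other 5 libraries. In whole skin, fewer cells of a type and less RNA per cell cannot be told apart.

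No barrier gene passed the test in either direction, and most levels in ecko skin lay close to those in control skin. At an adjusted p under 0.05 (edgeR quasi-likelihood test), 0 of 44 tested barrier genes were higher and 0 were lower in ecko skin. Over all 14920 genes tested the same call took 0% in the higher and 0.0067% in the lower direction, the single gene being Kdr. The Wald test of DESeq2 called 87 genes higher and 26 lower over the whole table and also 0 barrier genes, with a lowest adjusted p among them of 0.623. At an unadjusted p under 0.05, 1 barrier gene was higher, Aloxe3, and 1 was lower, Lce3c, against 4.92% and 4.1% of all genes, and 9.01% in both directions together.

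The groups did not overlap for 3 barrier genes: Aloxe3 was higher, and Cnfn and Tgm1 were lower, in every ecko library than in every control library. Over all genes, 7.55% were higher and 8.11% lower without overlap, 15.7% together. The median log2 fold change of the tested barrier genes was -0.08, with 35 below 0 and 9 above, while that of all genes was -0.002 and 50.5% of them were below 0. The 95% interval of the fold change lay within 1.5-fold in either direction for 35 of the 44 barrier genes, against 78.7% of all genes, and within 2-fold for 39. The wider intervals are those of 6 small proline-rich genes (Sprr1b, Sprr2a1, Sprr2a2, Sprr2a3, Sprr2d and Sprr2h), Lce3c, Rptn and Grhl3.

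**Figure D1:**
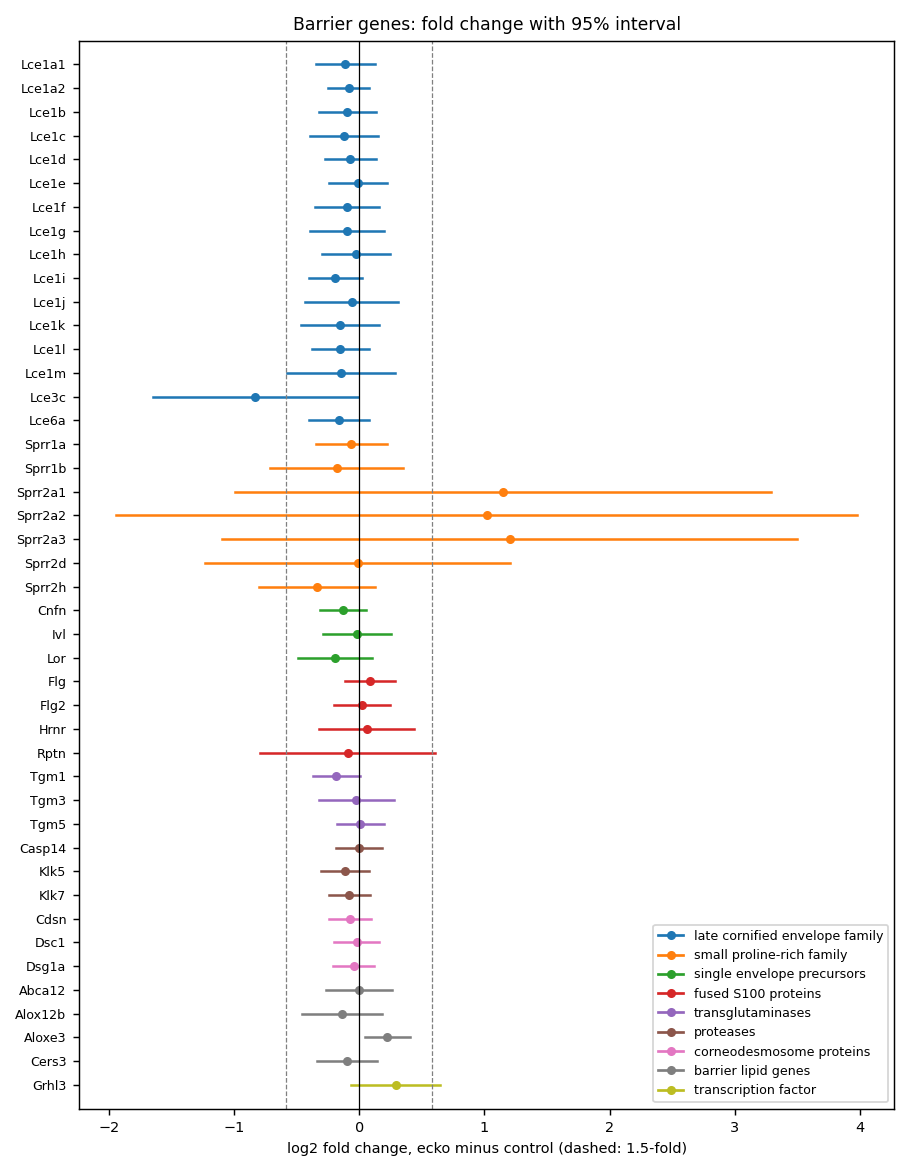
Log2 fold change (ecko minus control, horizontal axis) of the 44 tested barrier genes, one per line and coloured by role; points are estimates, bars are 95% intervals over 3 libraries a group, and dashed lines mark 1.5-fold. For 35 genes the bar stays within the dashed lines, and the widest bars are those of Sprr2a1, Sprr2a2 and Sprr2a3.

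The median below 0 depends on control 3 and, less, on ecko 3. Control 3 had the highest level of the 6 libraries for 32 of the 44 barrier genes (72.7%), against 27.5% of all genes. Ecko 3 was lowest for 17 (38.6%, against 10.3% of all genes) and control 2 was lowest for 16 (36.4%, against 14.5%). With each gene centred on its mean over the 6 libraries, the median log2 deviation of the barrier genes was 0.04, -0.00 and -0.14 in ecko libraries, and -0.01, -0.11 and 0.23 in control libraries. Without control 3, 46 members were tested, 19 were below 0 and 27 above, and their median was 0.02. Without ecko 3, 26 of 46 were below 0 and 20 above, with a median of -0.02. Whether the lower share of muscle RNA in control 3 contributes to its barrier gene levels was not tested.

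**Figure D2:**
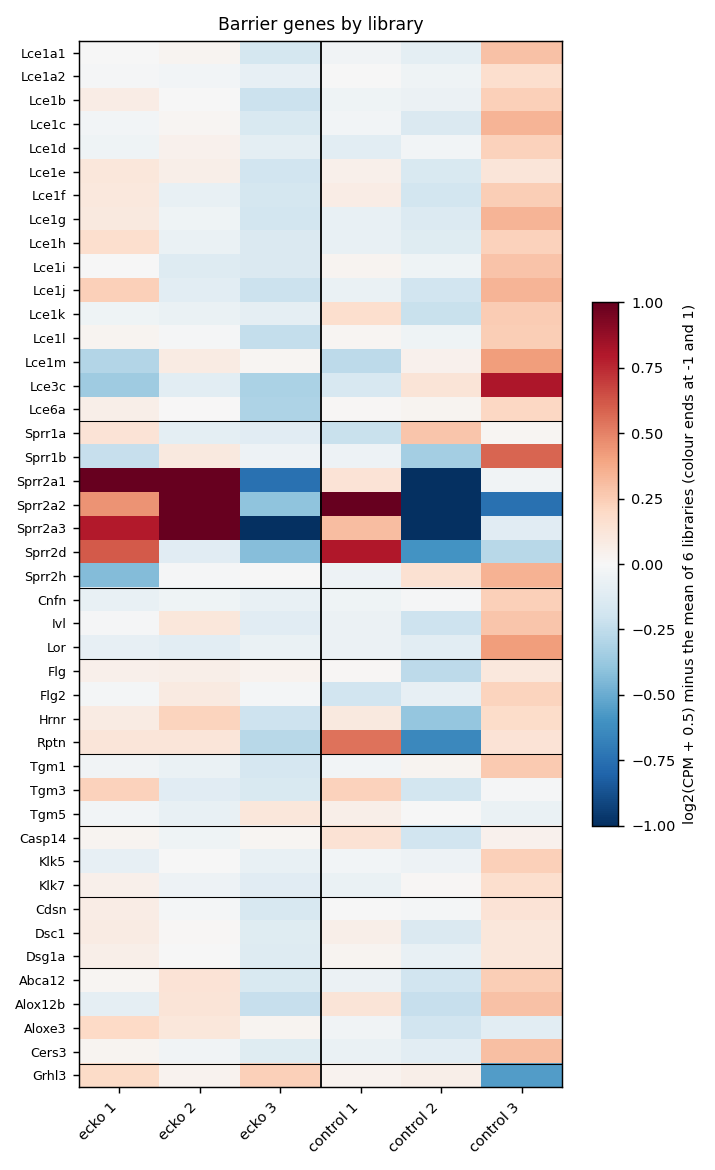
Level of each tested barrier gene (rows) in each library (columns, ecko left of control), as log2(CPM + 0.5) minus the mean of the 6 libraries; red is above and blue below that mean, and thin lines part the roles. The column of control 3 is red for most genes, and the small proline-rich genes Sprr2a1, Sprr2a2 and Sprr2a3 have the strongest colours.

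The genes of the chromosome 3 cluster span 92080271, the lowest coordinate of Lor, to 93399442, the highest of Rptn (RefSeq, GRCm38.p6), and 40 of the 55 members lie there. The 29 tested members on chromosome 3 were at a median of -0.09 on the log2 scale, with 23 below 0 and 6 above. The 15 tested members elsewhere had a median of -0.04, with 12 below 0 and 3 above. Along the cluster, members above 0 sat at 2 places, the Sprr2a genes and the filaggrin-like genes.

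**Figure D3:**
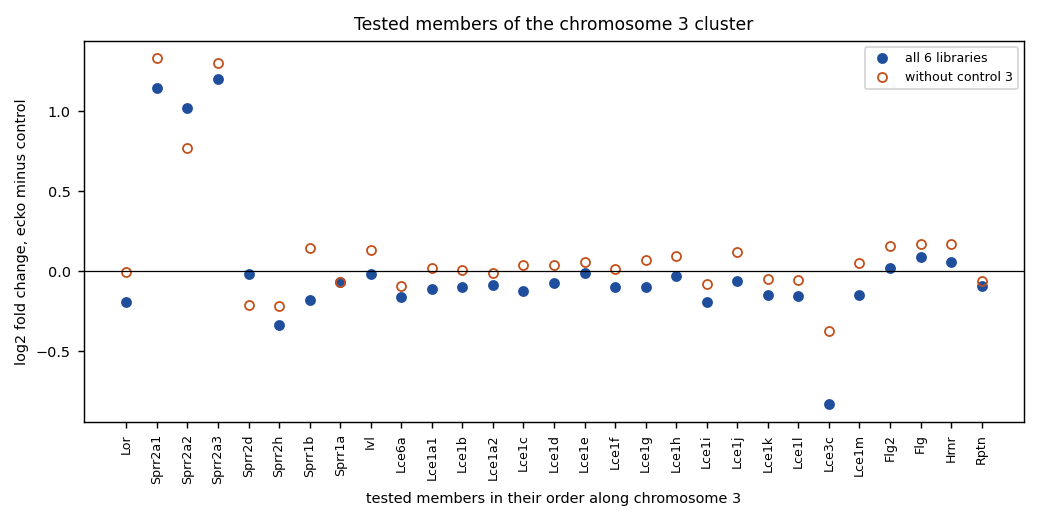
Log2 fold change (ecko minus control, vertical axis) of the 29 tested members of the cluster in their order along chromosome 3, from all 6 libraries (filled) and without control 3 (open). With all libraries every Lce gene lies below 0; without control 3 most of them lie at or just above it.

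The Sprr2a trio (Sprr2a1, Sprr2a2 and Sprr2a3) had the largest fold changes and the largest spread of the barrier genes, and none was called. All 3 were highest in ecko 2 and lowest in control 2. Short stretches of promoter are shown for the trio and, for comparison, for 5 other genes of the same cluster. Each is the 150 bases before the annotated start, on the gene's strand, 5′ to 3′ (RefSeq, GRCm38.p6). Sprr2a1 lies at chr3:92215835-92222491, Sprr2a2 at chr3:92250647-92257304 and Sprr2a3 at chr3:92285304-92289264, all on the plus strand. Their stretches are chr3:92215685-92215834, chr3:92250497-92250646 and chr3:92285154-92285303. Capitals mark the run of 122 bases found in all 3; the stretches of Sprr2a1 and Sprr2a2 differ at 0 bases, and in Sprr2a3 the run sits 28 bases nearer to the annotated start.
Sprr2a1: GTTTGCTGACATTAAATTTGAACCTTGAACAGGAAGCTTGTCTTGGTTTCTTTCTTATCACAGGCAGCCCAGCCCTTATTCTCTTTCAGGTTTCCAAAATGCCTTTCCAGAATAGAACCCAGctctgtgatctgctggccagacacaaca
Sprr2a2: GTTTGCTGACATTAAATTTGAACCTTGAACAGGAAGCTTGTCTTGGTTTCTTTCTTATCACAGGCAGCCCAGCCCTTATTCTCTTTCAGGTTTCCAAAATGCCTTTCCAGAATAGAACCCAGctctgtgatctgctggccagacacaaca
Sprr2a3: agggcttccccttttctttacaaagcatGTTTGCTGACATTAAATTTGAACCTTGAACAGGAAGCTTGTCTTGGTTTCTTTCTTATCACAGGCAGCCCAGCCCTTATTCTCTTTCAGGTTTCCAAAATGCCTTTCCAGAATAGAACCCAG

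For the comparison genes, the stretches are chr3:92385535-92385684 on the plus strand for Sprr2h, and on the minus strand chr3:92485882-92486031 for Sprr1a, chr3:92083143-92083292 for Lor, chr3:92648308-92648457 for Lce1a1 and chr3:93019062-93019211 for Lce1m. Capitals mark TATAAA, the core of a TATA box, and TGANTCA, the letters bound by AP-1 factors.
Sprr2h: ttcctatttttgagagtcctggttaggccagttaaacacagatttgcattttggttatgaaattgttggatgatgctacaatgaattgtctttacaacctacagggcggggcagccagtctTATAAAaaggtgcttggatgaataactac
Sprr1a: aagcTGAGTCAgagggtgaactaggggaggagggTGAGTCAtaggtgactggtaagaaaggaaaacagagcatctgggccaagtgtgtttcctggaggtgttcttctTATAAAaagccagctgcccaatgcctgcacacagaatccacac
Lor: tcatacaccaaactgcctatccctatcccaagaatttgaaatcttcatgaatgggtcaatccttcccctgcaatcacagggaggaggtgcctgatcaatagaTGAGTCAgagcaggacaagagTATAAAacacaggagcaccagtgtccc
Lce1a1: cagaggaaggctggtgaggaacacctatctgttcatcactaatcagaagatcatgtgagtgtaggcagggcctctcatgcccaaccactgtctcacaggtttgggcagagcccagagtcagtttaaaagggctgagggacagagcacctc
Lce1m: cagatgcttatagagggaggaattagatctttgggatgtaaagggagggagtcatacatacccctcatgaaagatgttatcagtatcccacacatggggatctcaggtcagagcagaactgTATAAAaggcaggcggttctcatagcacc

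In these stretches TATAAA starts 29 bases before the annotated start in Sprr2h and Lce1m, 43 in Sprr1a and 27 in Lor. TGANTCA starts 146 and 116 bases before the start in Sprr1a and 48 in Lor. Over the wider window that RefSeq coordinates give, 250 bases before to 50 after the start, 53 windows were found for 51 of the 55 members. TATAAA, read on the gene's strand, was in 17 of the 53 windows (32.1%), against 8.32% of all 32851 windows. TGANTCA, read on both strands, was in 14 (26.4%), against 7.81%. The 2 motifs divided the families: TGANTCA was in 7 of 10 Sprr2 windows and in 0 of 13 Lce1 windows, and TATAAA was in 7 of 10 Sprr2 windows and in 2 of 13 Lce1 windows. The same 7 Sprr2 windows hold both motifs, and the 3 Sprr2a windows hold neither. The Sprr2a genes are annotated with 3003, 2910 and 2883 exonic bases, against 609 (Sprr2f) to 784 (Sprr2b) for the others. Whether the annotated Sprr2a starts correspond to those of the other Sprr2 genes was not tested. AACNGGTT, the letters of Grainyhead-like factors, was in 2 windows (3.77%, of Rptn and Tgm5), against 2.09%. GGGTGTG, a Krüppel-like factor motif, was in 6 (11.3%), against 7.95%, and the interferon response motif was in 1 (1.89%, of Tgm1), against 3.44%. In the member windows 0 matches overlapped a match of another motif. These matches describe the letters alone and say nothing about binding.

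Among the single precursors of the envelope, Lor encodes loricrin, the bulk protein of the mature envelope. Lor had 387, 379 and 390 CPM in ecko skin, against 393, 381 and 548 CPM in control skin. The 3 ecko libraries and the first 2 control libraries lie close together, and control 3 alone is high. The log2 fold change was -0.19 ± 0.13 (fold interval 0.714 to 1.07, adjusted p = 0.676), and without control 3 it was -0.0008. Ivl, an early scaffold of the envelope, had 74.7, 81.1 and 69.4 CPM in ecko skin, against 72.1, 65.0 and 91.0 CPM in control skin, and the control libraries bracket the ecko ones (log2 fold change -0.02 ± 0.12). Cnfn, a small protein of the envelope, had 52.5, 53.5 and 52.5 CPM in ecko skin, against 53.6, 54.8 and 65.2 CPM in control skin. The groups do not overlap, but the lowest control library is within 0.1 CPM of the highest ecko one, and the log2 fold change was -0.13 ± 0.08 (fold interval 0.802 to 1.04, adjusted p = 0.657).

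Late cornified envelope genes encode small transglutaminase substrates that join the envelope late in its assembly. Of 21 in the table, 16 were tested: all 14 Lce1 genes, Lce3c and Lce6a. All 16 had a log2 fold change below 0, with a median of -0.10 and a range of -0.83 to -0.01, and in all 16 control 3 was the highest library. Without control 3, 6 of 17 tested Lce genes were below 0 and their median was 0.02. Summed over the Lce genes, the level was 750, 758 and 689 CPM in ecko libraries, and 730, 722 and 925 CPM in control libraries.

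Lce1a1 had 88.6, 90.7 and 78.9 CPM in ecko skin, against 86.9, 83.1 and 109 CPM in control skin (log2 fold change -0.11 ± 0.10, adjusted p = 0.763). Lce1m had 99.8, 130 and 124 CPM in ecko skin, against 102, 126 and 164 CPM in control skin (log2 fold change -0.15 ± 0.18, adjusted p = 0.828). In both genes the first 2 control libraries fall within the ecko range and control 3 lies above it. Lce1i, with the lowest value among the Lce1 genes, had 43.9, 40.4 and 39.9 CPM in ecko skin, against 45.1, 42.9 and 54.0 CPM in control skin (log2 fold change -0.19 ± 0.10, fold interval 0.756 to 1.01, adjusted p = 0.58). Lce1l had 38.3, 37.3 and 31.7 CPM in ecko skin, against 38.2, 36.5 and 44.6 CPM in control skin (log2 fold change -0.15 ± 0.10, adjusted p = 0.675). In Lce1i and Lce1l the groups overlap, and control 3 is again the highest library. The Lce1 genes share sequence: 9.12% (Lce1k) to 27.1% (Lce1i) of the 50-base windows of their transcripts occur in another gene's transcripts, and 0% for Lce1m, so the division of reads among the others is uncertain.

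Lce6a, which lies between Ivl and the Lce1 genes, had 33.7, 32.5 and 26.1 CPM in ecko skin, against 32.6, 33.0 and 37.5 CPM in control skin (log2 fold change -0.16 ± 0.11). Lce3c belongs to the subfamily known in human skin for its rise on injury and in psoriasis. Lce3c had 13, 17 and 13 counts in ecko skin, against 16, 22 and 38.91 counts in control skin, and ecko 2 lies above control 1. Its log2 fold change was -0.83 ± 0.37, with an unadjusted p of 0.0469 and an adjusted p of 0.552, and it was -0.37 without control 3. In Lce3c 35.7% of the windows are shared with other transcripts. The other 5 Lce3 genes were not tested, and the highest of them, Lce3e, had 13, 5.62 and 4 counts in ecko skin, against 10.68, 4 and 9 in control skin.

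Small proline-rich proteins are flexible cross-bridges of the envelope. The table lists 13 Sprr genes, and 7 of them were tested, 4 below and 3 above 0, with a median log2 fold change of -0.01 and a range of -0.34 to 1.20. Sprr1a, the most abundant of them, had 204, 174 and 171 CPM in ecko skin, against 159, 226 and 188 CPM in control skin, with the control libraries on both sides of the ecko ones (log2 fold change -0.06 ± 0.12, fold interval 0.786 to 1.17). Sprr1b had 5.84, 7.46 and 6.67 CPM in ecko skin, against 6.69, 5.37 and 10.6 CPM in control skin (log2 fold change -0.18 ± 0.24). Sprr2h had 2.34, 3.31 and 3.33 CPM in ecko skin, against 3.20, 3.76 and 4.38 CPM in control skin, and both ecko 2 and ecko 3 lie above control 1 (log2 fold change -0.34 ± 0.21, adjusted p = 0.644).

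Sprr2a1, Sprr2a2 and Sprr2a3 had the largest fold changes of the barrier genes and also the largest spread within each group. Sprr2a1 had 98.5, 114 and 27.2 CPM in ecko skin, against 50.5, 13.2 and 44.7 CPM in control skin. The first 2 ecko libraries are above every control library, and ecko 3 lies below control 1 and control 3. The log2 fold change was 1.15 ± 0.79, the fold interval 0.501 to 9.80 and the adjusted p 0.697. Sprr2a2 had 29.9, 80.0 and 16.3 CPM in ecko skin, against 45.2, 4.37 and 12.8 CPM in control skin (log2 fold change 1.02 ± 1.09, adjusted p = 0.806). Sprr2a3 had 9.63, 17.8 and 2.40 CPM in ecko skin, against 6.74, 1.38 and 4.90 CPM in control skin (log2 fold change 1.20 ± 0.88, adjusted p = 0.711).

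The highest library was ecko 2 and the lowest control 2 for each of these 3 genes. Between those ends Sprr2a2 differed in order: it was lower in ecko 1 than in control 1 and higher in ecko 3 than in control 3, and the reverse held for Sprr2a1 and Sprr2a3. The highest level was 8.63, 18.3 and 12.9 times the lowest in Sprr2a1, Sprr2a2 and Sprr2a3. Their spread between libraries of a group, given as the biological coefficient of variation of edgeR, was 64.5%, 87.6% and 72.8%, above the 99th percentile of all genes, while the median was 10.5% over the tested barrier genes and 9.22% over all genes. Sprr2d was also variable, at 41.5%, with 2.45, 1.29 and 0.936 CPM in ecko skin, against 2.87, 0.775 and 1.10 CPM in control skin. Dsg1a had the lowest spread of the tested barrier genes, at 7.24%.

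**Figure D4:**
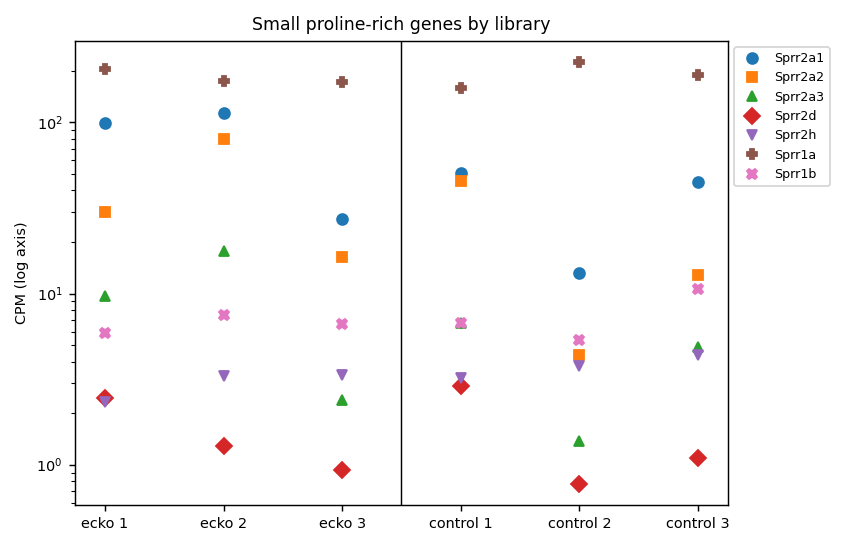
Level of the 7 tested small proline-rich genes (CPM, log axis) in each library, ecko left and control right of the line. Sprr2a1, Sprr2a2 and Sprr2a3 are each highest in ecko 2 and lowest in control 2, with Sprr2a2 in a different order from the other two between those ends, while Sprr1a stays between 159 and 226 CPM.

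The transcripts of the trio are near copies, with 96.3%, 96.5% and 61.1% of the 50-base windows of Sprr2a1, Sprr2a2 and Sprr2a3 found in another gene's transcripts, so the split of reads between them is uncertain and their sum is the firmer value. The sum was 138, 212 and 45.9 CPM in ecko skin, against 102, 19.0 and 62.4 CPM in control skin, with a log2 fold change of 1.11 ± 0.87 (fold 2.16, fold interval 0.414 to 11.2, adjusted p = 0.736). With 1 library left out it ran from 0.59 (without ecko 2) to 1.70 (without control 1).

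The 2 libraries with the lowest sum, control 2 and ecko 3, are also those with almost no reads of the Y-linked gene Ddx3y, which had 1641, 1445 and 6 counts in ecko libraries, and 1551, 4 and 1469 counts in control libraries. Among libraries with Ddx3y the sum averaged 175 CPM in 2 ecko libraries and 82.4 CPM in 2 control libraries; the libraries without it are 1 ecko and 1 control library and give no comparison with replicates. A further fit held a continuous covariate, the summed log2 CPM of Y-linked genes including Ddx3y. With this Y-linked covariate, the log2 fold change of the Sprr2a sum was 1.11 ± 0.24 (unadjusted p = 0.00363, adjusted p = 0.41). This covariate was chosen after seeing that it marks the libraries with the lowest sum. The fit with its smaller SE is therefore no independent test, and the cause of the smaller SE was not tested.

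Filaggrin and its relatives are S100-fused proteins that bundle keratin filaments and join the envelope. They held the largest part of the barrier counts, with a summed level of 3921, 4087 and 3733 CPM in ecko skin, and 3791, 3206 and 4214 CPM in control skin. Of the 4, 3 had a log2 fold change above 0 and 1 below, with a median of 0.04. Flg, whose product is cut into the units that later yield the skin's natural moisturizing factor, had 2242, 2255 and 2217 CPM in ecko skin, against 2184, 1807 and 2329 CPM in control skin. The 3 ecko libraries are nearly equal and lie within the control range (log2 fold change 0.09 ± 0.09, fold interval 0.925 to 1.22, adjusted p = 0.785).

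Flg2 had 788, 850 and 789 CPM in ecko skin, against 700, 757 and 933 CPM in control skin (log2 fold change 0.02 ± 0.10). Hrnr, which encodes hornerin, had 871, 962 and 713 CPM in ecko skin, against 881, 631 and 932 CPM in control skin (log2 fold change 0.06 ± 0.16). Rptn, which encodes repetin, had 19.6, 19.6 and 14.7 CPM in ecko skin, against 26.4, 11.3 and 19.8 CPM in control skin, with a spread of 24.8% (log2 fold change -0.09 ± 0.29). In these 3 genes the lowest and the highest control library enclose the ecko libraries, except for ecko 2 in Hrnr, which is the highest of the 6.

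Transglutaminases form the cross-links of the envelope. Tgm1, the membrane-anchored enzyme whose loss causes lamellar ichthyosis in humans, had 72.1, 70.6 and 65.7 CPM in ecko skin, against 72.6, 75.5 and 88.8 CPM in control skin. The groups do not overlap, although ecko 1 and control 1 differ by less than 1 CPM. The log2 fold change was -0.18 ± 0.08 (fold interval 0.773 to 1.00, unadjusted p = 0.0528, adjusted p = 0.562), and it was -0.09 without control 3. Tgm3, which also acts in the hair follicle, had 89.0, 70.2 and 68.4 CPM in ecko skin, against 89.0, 66.7 and 75.5 CPM in control skin (log2 fold change -0.02 ± 0.13). Tgm5 had 28.3, 27.5 and 31.3 CPM in ecko skin, against 30.1, 28.9 and 27.7 CPM in control skin (log2 fold change 0.01 ± 0.09, fold interval 0.882 to 1.15).

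Casp14 encodes a caspase that takes part in filaggrin breakdown, and Klk5 and Klk7 encode kallikreins that cut corneodesmosomes. Casp14 had 245, 232 and 243 CPM in ecko skin, against 264, 210 and 247 CPM in control skin, with the ecko libraries inside the control range (log2 fold change -0.001 ± 0.08, fold interval 0.880 to 1.13). Klk5 had 61.0, 64.5 and 61.2 CPM in ecko skin, against 63.4, 62.5 and 76.4 CPM in control skin (log2 fold change -0.12 ± 0.09). Klk7 had 233, 218 and 209 CPM in ecko skin, against 216, 227 and 254 CPM in control skin (log2 fold change -0.08 ± 0.07). In both kallikrein genes the groups overlap and control 3 is the highest library.

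The corneodesmosome genes were among the least variable members. Dsg1a, a desmoglein that joins neighbouring keratinocytes, had 715, 686 and 629 CPM in ecko skin, against 701, 650 and 742 CPM in control skin (log2 fold change -0.04 ± 0.07). It shares 35.0% of its windows with other transcripts, mainly of Dsg1b and Dsg1c. Dsc1, a desmocollin of the upper epidermis, had 446, 425 and 388 CPM in ecko skin, against 439, 381 and 457 CPM in control skin (log2 fold change -0.02 ± 0.08). Cdsn, the corneodesmosin gene, had 265, 248 and 225 CPM in ecko skin, against 251, 248 and 277 CPM in control skin (log2 fold change -0.07 ± 0.08). For all 3 genes ecko 3 is the lowest ecko library and control 3 the highest control library, and the fold intervals lie between 0.847 and 1.12.

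The lipid genes serve the lamellae between dead cells and the lipid coat of the envelope. Aloxe3 and Alox12b encode lipoxygenases that act in sequence on the linoleate of barrier ceramides. Aloxe3 had 47.3, 44.5 and 41.9 CPM in ecko skin, against 40.2, 35.9 and 38.2 CPM in control skin, so all 3 ecko libraries lie above all 3 control libraries. The means were 44.5 ± 2.71 CPM in ecko skin and 38.1 ± 2.17 CPM in control skin (SD, n = 3 each). The log2 fold change was 0.22 ± 0.08 (fold interval 1.03 to 1.32, unadjusted p = 0.0178), and the adjusted p of 0.497 did not pass the threshold. Without control 3 it remained above 0, and over all libraries left out in turn it ran from 0.18 to 0.27.

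Alox12b did not share this order, with 45.3, 52.8 and 41.0 CPM in ecko skin, against 52.7, 41.1 and 59.3 CPM in control skin (log2 fold change -0.14 ± 0.14, adjusted p = 0.784). The difference between the 2 genes was not tested. Abca12, the transporter that loads lamellar granules and is mutated in harlequin ichthyosis in humans, had 77.0, 83.7 and 68.3 CPM in ecko skin, against 73.0, 66.5 and 90.0 CPM in control skin (log2 fold change -0.003 ± 0.12). Cers3, the synthase of ultra-long ceramides, had 60.2, 57.5 and 54.3 CPM in ecko skin, against 56.2, 54.8 and 72.9 CPM in control skin (log2 fold change -0.10 ± 0.11). In both, the 3 ecko libraries lie below control 3 and overlap the other controls.

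Grhl3 encodes a Grainyhead-like transcription factor that the mouse embryo needs to form the barrier, and Tgm1 is one of its known targets in the mouse. Grhl3 had 48.9, 43.7 and 50.5 CPM in ecko skin, against 43.7, 44.4 and 28.8 CPM in control skin. It is the only 1 of the 44 tested members for which control 3 is the lowest library, and ecko 2 lies below control 2, so the groups overlap. The log2 fold change was 0.29 ± 0.15 (fold interval 0.957 to 1.56, unadjusted p = 0.0961, adjusted p = 0.611), and it was 0.12 without control 3.

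Per kilobase of exon, where levels can be set side by side between genes, Lor and Sprr1a were the most abundant of the precursors described above, with 217 and 227 CPM per kilobase in ecko skin and 248 and 237 in control skin. Lce1m (135 in ecko skin, 149 in control skin) and Lce1a1 (122 in ecko skin, 132 in control skin) came next, near Dsg1a, Klk7 and Flg2, which had 119, 116 and 115 in ecko skin and 123, 123 and 114 in control skin. The cross-linking enzymes were lower, with 23.1 for Tgm1, 18.3 for Tgm3 and 11.1 for Tgm5 in ecko skin, against 26.2, 18.6 and 11.1 in control skin. Abca12 (8.35 in ecko skin, 8.37 in control skin) and Rptn (4.34 in ecko skin, 4.63 in control skin) were lower still. Some small precursors lay below Rptn in both groups: Lce3c and Sprr2d had 1.43 and 2.29 in ecko skin, against 2.57 and 2.32 in control skin. Sprr2a3 had 3.45 in ecko skin and 1.51 in control skin over 2883 exonic bases. Its place is uncertain, because the Sprr2 genes outside the trio are annotated with 609 (Sprr2f) to 784 (Sprr2b) bases. The split of reads within the trio is also uncertain. Flg was left out of this scale because the longest coding transcript annotated for it, 1488 bases, is shorter than its 7166 exonic bases.

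The 11 members that were not tested are Lce3a, Lce3b, Lce3d, Lce3e, Lce3f, Sprr2b, Sprr2e, Sprr2f, Sprr2i, Sprr2k and Sprr4, and none exceeded 14 counts in any library. Sprr2k had no count in any library, which allows up to 3 counts in each, or 0.166 to 0.175 CPM. Sprr2b had 14, 9 and 1 counts in ecko skin, against 11, 1 and 2 counts in control skin, and is lowest in ecko 3 and control 2, as the Sprr2a genes are. No difference between groups is given for these 11 genes, which the low-count filter removed; without that filter 54 members were tested and 0 passed the threshold.

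Related lists of epidermal genes gave a similar picture, and 0 genes of any list passed the test. A list without a call need not be unchanged. Of 20 tested type I interferon response genes, 20 were above and 0 below 0, with a median log2 fold change of 1.37. Of these, 19 were higher without overlap, against 7.55% of all genes, and the lowest adjusted p was 0.15. Macrophage genes were above 0 in 10 of 10 and endothelial genes below 0 in 11 of 11. Of 29 tested genes for other envelope and differentiation proteins, 21 were below and 8 above 0, with a median log2 fold change of -0.04. The summed level of this list was 8605, 8491 and 8208 CPM in ecko skin, and 8353, 8477 and 9499 CPM in control skin. Only control 3 lies above the ecko libraries, and the lists were not refitted without it. S100a16, a calcium-binding protein, averaged 216 ± 7.89 CPM in ecko skin and 240 ± 14.9 CPM in control skin (SD, n = 3 each), without overlap (log2 fold change -0.15 ± 0.07, adjusted p = 0.539). The 22 tested proteases, inhibitors and filaggrin processing enzymes had a median of -0.03, and the 26 adhesion and tight junction genes had a median of -0.02. The 37 transcription factors of epidermal differentiation had a median of -0.01. Among them Elf3 averaged 3.55 ± 0.08 CPM in ecko skin and 2.56 ± 0.47 CPM in control skin (SD, n = 3 each), without overlap between the groups (log2 fold change 0.47 ± 0.20, adjusted p = 0.532).

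Of 32 tested barrier lipid genes outside the member list, 20 were below and 12 above 0, with a median of -0.04, and 2 were lower without overlap, against 8.11% of all genes. The 2 genes of smallest p in this list are given. Dgat2, which makes triglycerides for the acylceramides of the barrier and for sebum, had 116, 146 and 125 CPM in ecko skin, against 182, 163 and 199 CPM in control skin (log2 fold change -0.49 ± 0.10, unadjusted p = 0.000593, adjusted p = 0.252). Sult2b1, which sulfates cholesterol in the upper epidermis, had 35.5, 38.2 and 37.6 CPM in ecko skin, against 44.1, 42.2 and 50.6 CPM in control skin (log2 fold change -0.30 ± 0.09, adjusted p = 0.409). Markers of sebocytes, which also use Dgat2, were below 0 for 11 of 14 tested genes, with a median of -0.13 and a summed level of 1264, 1243 and 1253 CPM in ecko skin, and 1255, 1432 and 1376 CPM in control skin; their part in the Dgat2 value was not tested.

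Keratins and other markers of the epidermal layers gave no call either. The 5 tested suprabasal keratins had a median of -0.21, with 4 below 0, and Krt1 had 6032, 7328 and 6251 CPM in ecko skin, against 8434, 5876 and 8418 CPM in control skin, so control 2 lies below every ecko library. Dst, which encodes the hemidesmosome linker dystonin, had 570, 410 and 430 CPM in ecko skin, against 362, 376 and 314 CPM in control skin, without overlap (log2 fold change 0.42 ± 0.13, adjusted p = 0.461). Krt15, a basal keratin, had 643, 647 and 697 CPM in ecko skin, against 714, 745 and 758 CPM in control skin, also without overlap (log2 fold change -0.16 ± 0.06, adjusted p = 0.531). The 11 basal keratinocyte genes, 5 above and 6 below 0, had a median of -0.01 and a summed level of 7254, 7302 and 7343 CPM in ecko skin, and 7682, 7223 and 7853 CPM in control skin. Of 14 tested stress keratinocyte genes, 9 were above and 5 below 0, with a median of 0.12. Krt6a, a keratin of stressed and follicular keratinocytes, had 81.0, 75.5 and 65.7 CPM in ecko skin, against 93.0, 98.8 and 103 CPM in control skin, without overlap (log2 fold change -0.41 ± 0.08, unadjusted p = 0.000507, adjusted p = 0.229). The 20 hair shaft and inner root sheath genes had a median of -0.14, with 16 below 0.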

How the data were processed

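Per the submitters' processing notes, HISAT2 2.2.1, Bowtie2 2.4.5, RSEM 1.3.1 and GRCm38.p6 were used, with no role given; annotation and strand setting are not given in the sources used here. The deposited table holds expected counts, not scaled between libraries (unit read from the values, 10.1% to 10.4% of them not whole). They were rounded and fitted with the edgeR 4.0.16 quasi-likelihood test (robust, TMM, filterByExpr with a minimum count of 10) in R 4.3.3, and two-sided p-values were adjusted by Benjamini-Hochberg over 14920 genes, with a threshold of 0.05. CPM uses the TMM-scaled library size. SE is the log2 fold change divided by the root of F and intervals are 95%, both including the spread between libraries; reads carry no molecular identifiers. Code was tested on simulated data. Members and lists were chosen with earlier results of these data known. Values by library follow a rule: tested members outside the Lce and Sprr families, in those families the 4 smallest p and the 2 most abundant, and up to 3 genes of smallest p per list; Sprr1b, Sprr2b, Sprr2d and Lce3e fall outside it and were added with their values in view. DESeq2 1.42.0 and limma-voom (limma 3.58.1) were alternatives. An exact permutation test of 3 against 3 cannot go below 0.1 and was not run. Exon lengths and shared windows come from GENCODE M21, and promoters from RefSeq; 18353 identifiers matched RefSeq.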

Additional observations from a re-analysis of the deposited data

How the results depend on the processing

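With other scaling, filters, the DESeq2 Wald test, limma-voom, the fit without robust estimation or without the 20 most abundant genes, 0 members were called. With the Y-linked covariate, added after seeing the data, 1 member was called higher, Sprr2a1. The sum of the 3 Sprr2a genes was not called, and the covariate was chosen from the same levels. The median log2 fold change of the tested members ran from -0.14 to 0.024 with 1 library left out, above 0 only without control 3, and from -0.08 to -0.06 otherwise. With 1 library left out, 1 to 3 members were higher and 2 to 9 lower without overlap, while such genes made up 20.9% to 30.7% of all genes. Deviations from the group mean of same-numbered libraries had correlations of 0.168, -0.275 and -0.055 over all genes, with no common sign. Deviations within a group of 3 are tied to one another, so these values cannot settle whether the numbers mark pairs. The replicate block called 88 genes higher and 10 lower over the table and 0 members. Of 486 log2 fold changes of named members and the Sprr2a sum under alternatives, 447 kept direction and side of the threshold, 38 changed sign and 1 passed the threshold; 17 of 32 named members never changed sign. Abca12 changed sign to 0.00041 without the filter, 0.0053 with limma-voom and 0.0036 with the block. Casp14 changed sign to 0.00080 with DESeq2 size factors and with the Wald test, and to 0.0023 without the filter. It was 0.0052 with limma-voom, 0.0049 with the block and 0.0027 with the Y-linked covariate. Both genes are near 0 throughout, and the cause was not tested.

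With 1 library left out, values that changed sign ran from -0.098 to 0.14 for Abca12, -0.094 to 0.071 for Casp14, -0.17 to 0.052 for Cers3, -0.098 to 0.038 for Dsc1, -0.095 to 0.0071 for Dsg1a, -0.014 to 0.17 for Flg, -0.065 to 0.16 for Flg2, -0.099 to 0.17 for Hrnr, -0.12 to 0.14 for Ivl, -0.19 to 0.024 for Lce1a1, -0.30 to 0.051 for Lce1m, -0.36 to 0.21 for Rptn, -0.18 to 0.071 for Sprr1a, -0.16 to 0.093 for Tgm3 and -0.049 to 0.047 for Tgm5. Lce3c was -1.08 without control 1 and -0.37 without control 3. All intervals are limited by 3 libraries a group.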
